A study of Mus musculus with 16 samples.

Results

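The SOX factor loci are the ATAC-seq peaks assigned to 10 genes of the SOX family, Sox2, Sox4, Sox5, Sox6, Sox7, Sox11, Sox12, Sox13, Sox17 and Sox21. A peak belonged to a locus when the protein-coding start site nearest its midpoint was that of the gene and lay within 100 kb. Of 136630 nuclear peaks, 101 met this rule: 25 at Sox5, 21 at Sox4, 20 at Sox13, 11 at Sox7, 7 at Sox17, 6 at Sox6, 5 at Sox2, and 3 each at Sox12 and Sox21. Sox11 had none. The cells were mKate2-positive tumour cells, 60000 sorted per sample, from KC-shSmad4 pancreatic cancers. All groups shared one engineered background, which included Ptf1a-Cre, active in pancreatic epithelium, Rosa26 LSL-rtTA3-IRES-mKate2, and a doxycycline-inducible, GFP-linked short hairpin RNA against Smad4 in the Col1a1 locus. Lines derived from such tumours were transplanted into female nude mice, which lack T cells, by injection into the pancreas (Panc), into the spleen for growth in the liver (Liv) or into the tail vein for growth in the lungs (Lung). Smad4 was off under doxycycline (OFF) and was restored by withdrawal of the drug for 14 days (ON), begun 4, 5 and 6 weeks after injection for Panc, Liv and Lung. The cells injected numbered 100000, 400000 and 250000 in the same order. Organ, route of injection, number of cells injected and time of growth therefore cannot be told apart. The columns of Lung_ON in the deposited table name 1 day more than the labels. Panc_OFF, Panc_ON, Lung_OFF and Lung_ON had n = 3 mice each, and Liv_OFF and Liv_ON had n = 2 each.

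SOX proteins are transcription factors that bind the minor groove of DNA through an HMG box, recognise short sites close to AACAAT and bend the helix. Subgroup B (Sox2, Sox21) is known from stem and neural progenitor cells, subgroup C (Sox4, Sox11, Sox12) from progenitors and carcinomas, subgroup D (Sox5, Sox6, Sox13) from cartilage and lymphoid development, and subgroup F (Sox7, Sox17) from endoderm and endothelium. Sox4 is a known target of TGF-beta, the ligand whose signal Smad4 carries, and in pancreatic cancer cells its activity after TGF-beta is known to depend on the other factors present. ATAC-seq reads the accessibility of DNA to a transposase. It does not measure expression, and in a bulk sample fewer cells with an open site and a less open site in each cell cannot be told apart.

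Per sample, 22495044 to 37510981 reads fell in nuclear peaks. Values below are normalised counts of reads per peak, on which limma gave each log2 fold change, its SE and a p-value that was adjusted by the Benjamini-Hochberg method over all nuclear peaks. A peak was called when its log2 fold change reached 0.58 in either direction with an adjusted p no greater than 0.1. The ductal epithelial markers Krt8, Krt18, Krt19, Epcam and Cdh1 each had an open start site in every sample. Of the hepatocyte markers, Fgb had no peak and the nearest Alb peak held 5.37 to 27.3 normalised counts, but the nearest Apoa1 peak held 444 to 566 in the liver samples against 160 to 369.5 elsewhere, and the sum over the list was higher in the liver samples (725 to 819) than elsewhere (242 to 526). Sums over 4 fibroblast markers were 1678 to 2680 in the pancreas, 852 to 998 in the liver and 1047 to 1411 in the lungs. Most of each sum was Col1a1 (1258 to 1727, 728 to 839 and 908.5 to 1172), the locus that carries the hairpin in these tumour cells. In the same order Pdgfrb held 320 to 676, 75.15 to 133 and 109 to 396. Dcn held 49.8 to 196.5, 11.15 to 23.45 and 12.9 to 21.5, and Pdgfra 30.7 to 105, 2.79 to 14.8 and 5.6 to 16.6. Lung epithelial markers, of which Sftpc had no peak, summed to 1519 to 1966 in the liver and 501 to 1321 elsewhere. Most of this was the nearest Sftpb peak, with 451 to 1779 over all samples and its edge 10530 bp from the start site. Immune markers, of which Cd3e and Cd79a had no peak, summed to 202.5 to 357 over all samples. Most of this was the nearest Adgre1 peak, with 156 to 259 and its edge 22650 bp away. The part of host cells in the values below was not tested. Lung_OFF replicate 1 stood apart, with high values on distal chromosome 6, where Sox5 lies. Its sum over 5 endothelial markers was 904, against 89.4 to 491 in the other samples. Of this sum the Cdh5 peak held 697, and Pecam1, Kdr, Tek and Emcn held 124, 14.7, 33.1 and 35. Panc_ON samples reached 156 at Pecam1 and 226 at Emcn.

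8 of the 101 peaks are shown by sequence, as examples that differed between organs or Smad4 states. Peaks such as Sox21 +0.5 kb and Sox7 +19.6 kb had smaller adjusted p than several of these and are not shown. Each line gives 300 bases centred on the peak, on the plus strand of mm10 (sequence from GRCm38.p6), and overlaps no annotated exon. Capitals mark matches on either strand to the short motifs searched, which were AACAAT for SOX factors, TGANTCA for AP-1, CCNCNCCC for KLF, TGTGGT for RUNX and GGAATG for TEAD. The number in each name is the distance in kb of the peak midpoint from the nearest start site of the gene, negative upstream.
Sox4 +29.4 kb (chr13:28924120-28924419): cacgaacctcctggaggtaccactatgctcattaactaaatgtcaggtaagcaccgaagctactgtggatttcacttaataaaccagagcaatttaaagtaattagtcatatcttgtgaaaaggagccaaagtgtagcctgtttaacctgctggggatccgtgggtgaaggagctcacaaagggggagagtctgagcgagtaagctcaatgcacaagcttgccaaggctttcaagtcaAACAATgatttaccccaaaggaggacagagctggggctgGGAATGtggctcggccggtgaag
Sox4 +86.3 kb (chr13:28867270-28867569): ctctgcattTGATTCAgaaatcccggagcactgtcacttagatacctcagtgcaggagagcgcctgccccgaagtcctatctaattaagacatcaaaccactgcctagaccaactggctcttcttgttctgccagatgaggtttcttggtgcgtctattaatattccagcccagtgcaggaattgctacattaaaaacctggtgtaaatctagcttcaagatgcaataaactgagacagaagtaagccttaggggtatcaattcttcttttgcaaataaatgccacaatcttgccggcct
Sox4 +93.6 kb (chr13:28859989-28860288): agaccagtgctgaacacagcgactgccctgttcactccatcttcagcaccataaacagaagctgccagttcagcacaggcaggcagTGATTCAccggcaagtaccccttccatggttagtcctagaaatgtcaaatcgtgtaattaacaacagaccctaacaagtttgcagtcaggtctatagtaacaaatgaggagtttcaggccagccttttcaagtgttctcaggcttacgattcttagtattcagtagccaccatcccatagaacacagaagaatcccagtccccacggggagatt
Sox4 -60.8 kb (chr13:29014398-29014697): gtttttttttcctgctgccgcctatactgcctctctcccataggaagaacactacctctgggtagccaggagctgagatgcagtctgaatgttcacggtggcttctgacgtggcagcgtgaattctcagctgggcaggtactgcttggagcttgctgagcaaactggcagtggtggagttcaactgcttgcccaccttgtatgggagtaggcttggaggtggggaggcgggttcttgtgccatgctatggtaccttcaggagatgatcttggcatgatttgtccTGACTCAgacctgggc
Sox17 -41.2 kb (chr1:4538378-4538677): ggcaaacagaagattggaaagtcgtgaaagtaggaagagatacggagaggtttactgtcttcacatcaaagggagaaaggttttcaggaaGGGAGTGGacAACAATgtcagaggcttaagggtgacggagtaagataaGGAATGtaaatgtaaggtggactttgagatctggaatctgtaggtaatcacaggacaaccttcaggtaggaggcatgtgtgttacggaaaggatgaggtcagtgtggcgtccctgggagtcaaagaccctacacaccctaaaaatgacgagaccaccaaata
Sox6 -22.1 kb (chr7:115868086-115868385): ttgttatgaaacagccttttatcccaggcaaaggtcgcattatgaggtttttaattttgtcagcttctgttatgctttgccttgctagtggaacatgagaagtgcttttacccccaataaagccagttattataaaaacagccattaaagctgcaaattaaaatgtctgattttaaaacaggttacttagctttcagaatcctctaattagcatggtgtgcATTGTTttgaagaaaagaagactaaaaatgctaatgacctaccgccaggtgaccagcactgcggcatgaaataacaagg
Sox13 +8.6 kb (chr1:133415637-133415936): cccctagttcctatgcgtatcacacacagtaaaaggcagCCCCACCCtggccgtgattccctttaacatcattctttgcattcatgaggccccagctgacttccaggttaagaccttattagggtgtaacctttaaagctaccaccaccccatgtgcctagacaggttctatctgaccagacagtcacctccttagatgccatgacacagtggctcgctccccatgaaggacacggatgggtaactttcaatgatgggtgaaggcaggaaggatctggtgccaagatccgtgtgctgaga
Sox7 -37.9 kb (chr14:63905663-63905962): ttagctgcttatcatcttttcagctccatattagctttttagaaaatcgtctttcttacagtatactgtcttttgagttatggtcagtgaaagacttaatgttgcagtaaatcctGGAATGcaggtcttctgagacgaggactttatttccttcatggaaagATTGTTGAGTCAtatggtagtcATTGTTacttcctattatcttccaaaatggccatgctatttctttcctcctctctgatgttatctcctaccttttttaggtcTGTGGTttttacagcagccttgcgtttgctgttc

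To ask how the organ in which the tumour grew bears on these loci, organs were compared within each Smad4 state. Between Liv_OFF and Lung_OFF, 46 of the 101 peaks were lower in the liver, against 26.8% of all peaks, and 12 were higher, against 22.9%. As shares of the SOX locus peaks these are 45.5% and 11.9%. Sox5 gave 21 of the 46, and without Sox5 the counts were 25 lower (32.9%) and 12 higher (15.8%) of 76 peaks. Between Liv_OFF and Panc_OFF, a comparison that shares the Liv_OFF samples, 40 peaks were lower in the liver (background 32.3%) and 15 higher (background 26.2%), or 24 and 15 of 76 without Sox5. The median log2 fold change of the 101 peaks was -0.80 in the first comparison and -0.70 in the second, and without Sox5 -0.21 and -0.12, where the median over all peaks was 0.00 and -0.05. The excess of lower over higher peaks was thus mostly at Sox5, which is treated separately below.

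With Smad4 restored, 26 peaks were lower and 9 higher in Liv_ON than in Lung_ON, where the background was 18.2% and 17.6%. Against Panc_ON, 38 were lower and 15 higher (background 32.2% and 27.1%). Both counts of calls were lower without Liv_ON replicate 2, and so were the counts over all peaks. That fit leaves 1 Liv_ON sample. The lungs and the pancreas differed at fewer SOX peaks. With Smad4 off, 7 were higher in the lungs (background 6.59%) and 3 lower (background 10.7%). These 10 calls fell to 5 without Panc_OFF replicate 2 and to 3 without Panc_OFF replicate 3. Over all peaks, 9006 higher and 14679 lower calls fell to 4323 and 10267, and to 3645 and 8052, in these fits. With Smad4 restored, 8 were higher (background 12.8%) and 13 lower (background 14.9%), 13 calls in all without Panc_ON replicate 2. Over all peaks, 17550 higher and 20384 lower calls became 14359 and 14662 in that fit. Under quantile normalisation the split of higher and lower was 11 and 2 with Smad4 off and 12 and 11 with Smad4 restored. Over all peaks that setting called 12209 higher and 15089 lower with Smad4 off, and 25224 and 19156 with Smad4 restored. In total 79 of the 101 peaks (78.2%) were called in at least 1 of the 6 organ comparisons, where 77.5% of all peaks were, so that the share called did not set these loci apart. Called in no comparison of any kind were 21.

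**Figure D1:**
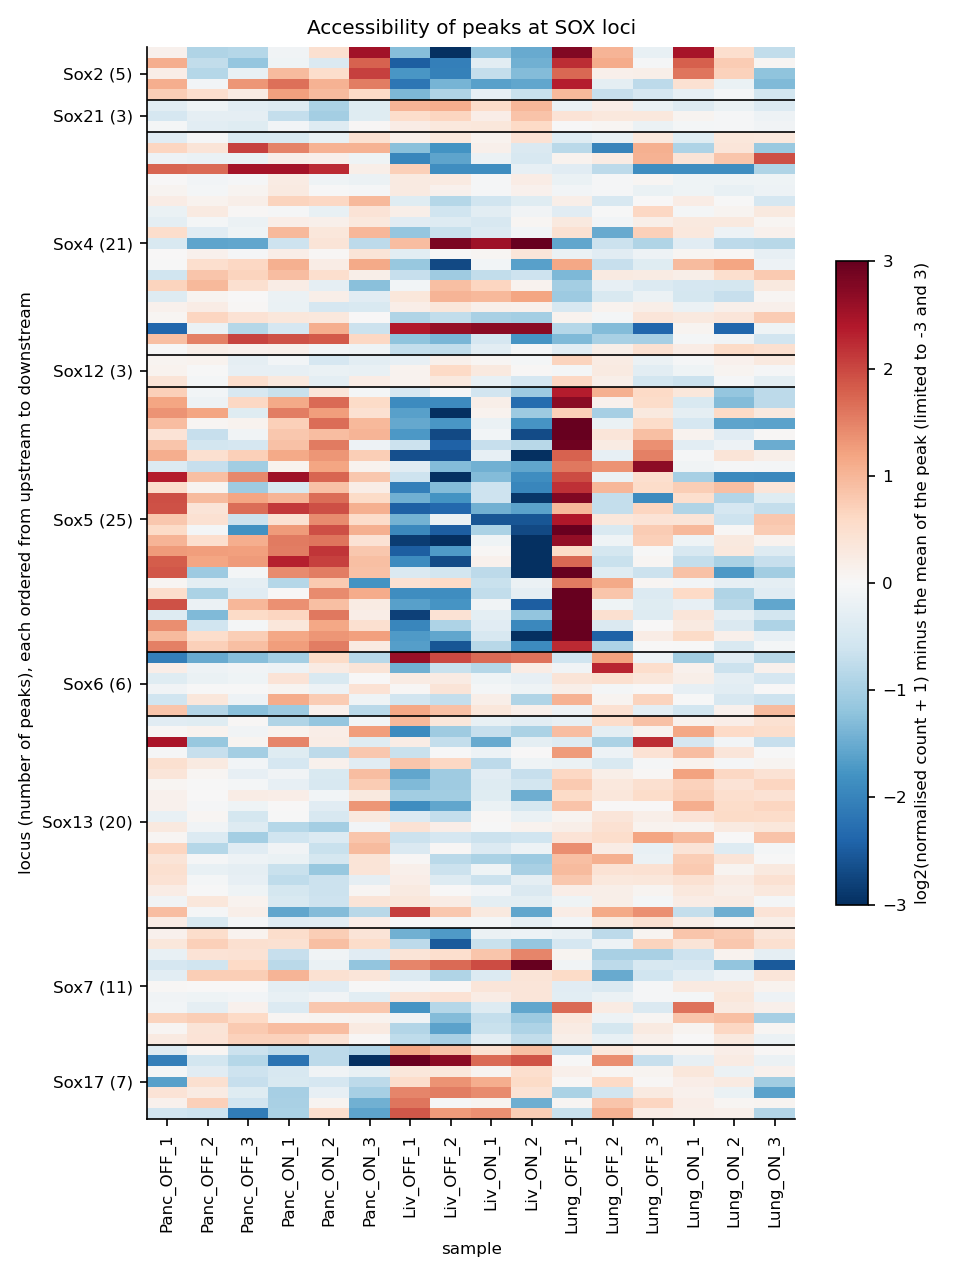
Deviation of each of the 101 SOX locus peaks (rows, grouped by gene and ordered by distance from the nearest start site) from its own mean over the 16 samples (columns), on the log2(normalised count + 1) scale, limited to -3 and 3. The liver samples are low across Sox2 and Sox5 and high at Sox17 and Sox21, Lung_OFF replicate 1 is high across Sox5, and the peaks of Sox12 differ little.

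Averaged over the 16 samples, the start-site peak of Sox4 had the highest level per kb of the 9 genes with a peak, although in the liver that of Sox21 was higher. The Sox4 peak (chr13:28950233-28954310) spans the start site and most of the single exon of the gene. The normalised counts were 1846, 1670 and 1838 in Panc_OFF, 2107 and 1905 in Liv_OFF, and 1662, 1693 and 1517 in Lung_OFF. With Smad4 restored they were 2122, 1744 and 1707 in Panc_ON, 1704 and 1924 in Liv_ON, and 1602, 1488 and 1572 in Lung_ON. The liver values lay above the lung values in both states, by a log2 fold change of 0.30 ± 0.10 (SE) with Smad4 off (adjusted p = 0.0232), which is under the size threshold. This sign turned under quantile normalisation and under a correction for GC content. On restoration its log2 fold change was 0.05 ± 0.09 for Panc, -0.15 ± 0.11 for Liv and -0.06 ± 0.09 for Lung (adjusted p = 0.813, 0.64 and 0.954), none of them called. The next peak, 5.2 kb upstream, was as accessible, between 1475 and 2037, and was not called in any comparison either.

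Among the 20 other Sox4 peaks 13 were called in at least 1 organ comparison, which is 61.9% of the 21 in the locus against 77.5% of all peaks. Between Liv_OFF and Lung_OFF 33.3% of the Sox4 peaks were called against 49.7% of all peaks, and between Liv_OFF and Panc_OFF 57.1% against 58.5%. A pair of downstream peaks was open almost only in the liver. At +29.4 kb (chr13:28924084-28924457) the counts were 14.8 and 58.5 in Liv_OFF and 47.8 and 86.3 in Liv_ON. The other 12 samples lay between 1.79 and 9.9. The log2 fold change to the lungs was 2.91 ± 0.65 with Smad4 off (adjusted p = 0.00198) and 3.61 ± 0.65 with Smad4 restored (adjusted p = 0.000883). The first ranged from 1.96 without Liv_OFF replicate 2 to 3.87 without Liv_OFF replicate 1, and stayed called. At +86.3 kb (chr13:28867306-28867534) the liver samples had 25.9, 30.7, 32.6 and 32.5 and the other samples 0 to 9.9, a log2 fold change of 4.01 ± 0.85 against Lung_OFF (adjusted p = 0.00149). These are sites of low count, so that the fitted fold depends on the pseudocount of 1. At neither did the liver samples overlap any other. Both peaks were named in part for a lack of overlap between the groups compared, so this is given as a description. The peak at +72.3 kb was also higher in the liver, by 1.24 ± 0.36 against Lung_OFF (adjusted p = 0.0109), a call lost without Liv_OFF replicate 2 (0.90, adjusted p = 0.139).

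Other Sox4 peaks were open mainly in the pancreas. The peak at +93.6 kb (chr13:28859871-28860408) had 51.2, 78.6 and 113 normalised counts in Panc_OFF and 103, 99 and 41.4 in Panc_ON. All liver and lung samples lay between 7.11 and 25.8. The log2 fold change from Panc_OFF was -2.77 ± 0.47 in Liv_OFF and -2.59 ± 0.42 in Lung_OFF (adjusted p = 0.000197 and 0.00134), and with Smad4 restored it was -2.59 ± 0.47 and -1.69 ± 0.42 (adjusted p = 0.000343 and 0.00898). The peak at -53.1 kb had its highest values in the pancreas too, at lower counts, with 3.07 to 19.6 in the pancreas and 0 to 4.94 elsewhere, so that the pancreas and liver ranges overlapped. The peak at +5.9 kb, just past the end of the gene, was higher in the pancreas than in the liver in both states, with log2 fold changes of the liver against the pancreas of -0.78 ± 0.25 and -1.23 ± 0.25 (adjusted p = 0.0132 and 0.000709). The first was lost without Liv_OFF replicate 2 (-0.54, adjusted p = 0.163). Among markers of the pancreas, the nearest peak of the acinar gene Cpa1 held 12.3 to 72.9 normalised counts in the pancreas, 1.02 to 18.5 in the liver and 0 to 6.74 in the lungs. Sums over the 4 acinar markers were 128 to 220, 200 to 302 and 118.5 to 255 in these organs, and sums over the 5 ductal markers were 11360 to 19060, 31680 to 42480 and 18190 to 27350. Their part in the Sox4 values was not tested.

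The peak at -60.8 kb (chr13:29014132-29014964) was low in Liv_OFF and high in the lungs. Its normalised counts were 14.8 and 19.5 in Liv_OFF, 53.8, 52.7 and 52.8 in Panc_OFF, and 65.4, 71.7 and 125 in Lung_OFF. In the restored state they were 53.6 and 42.7 in Liv_ON, 68.4, 66.8 and 55.2 in Panc_ON, and 78.6, 107 and 231 in Lung_ON. Liv_OFF was lower than Lung_OFF by a log2 fold change of -2.23 ± 0.39 (adjusted p = 0.000371) and lower than Panc_OFF by -1.59 ± 0.39 (adjusted p = 0.00261). Of the 21 Sox4 peaks, 3 were higher (14.3%, background 22.9%) and 4 lower (19%, background 26.8%) in Liv_OFF than in Lung_OFF. Against Panc_OFF, 3 were higher (14.3%, background 26.2%) and 9 lower (42.9%, background 32.3%) in Liv_OFF. The 141 other peaks within 1 Mb of Sox4 were also lower in the liver as a group, with a median deviation from the mean of each peak of -0.65 and -0.80 in Liv_OFF against 0.14 to 0.35 in Panc_OFF and -0.26 to 0.08 in Lung_OFF (log2 scale).

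**Figure D2:**
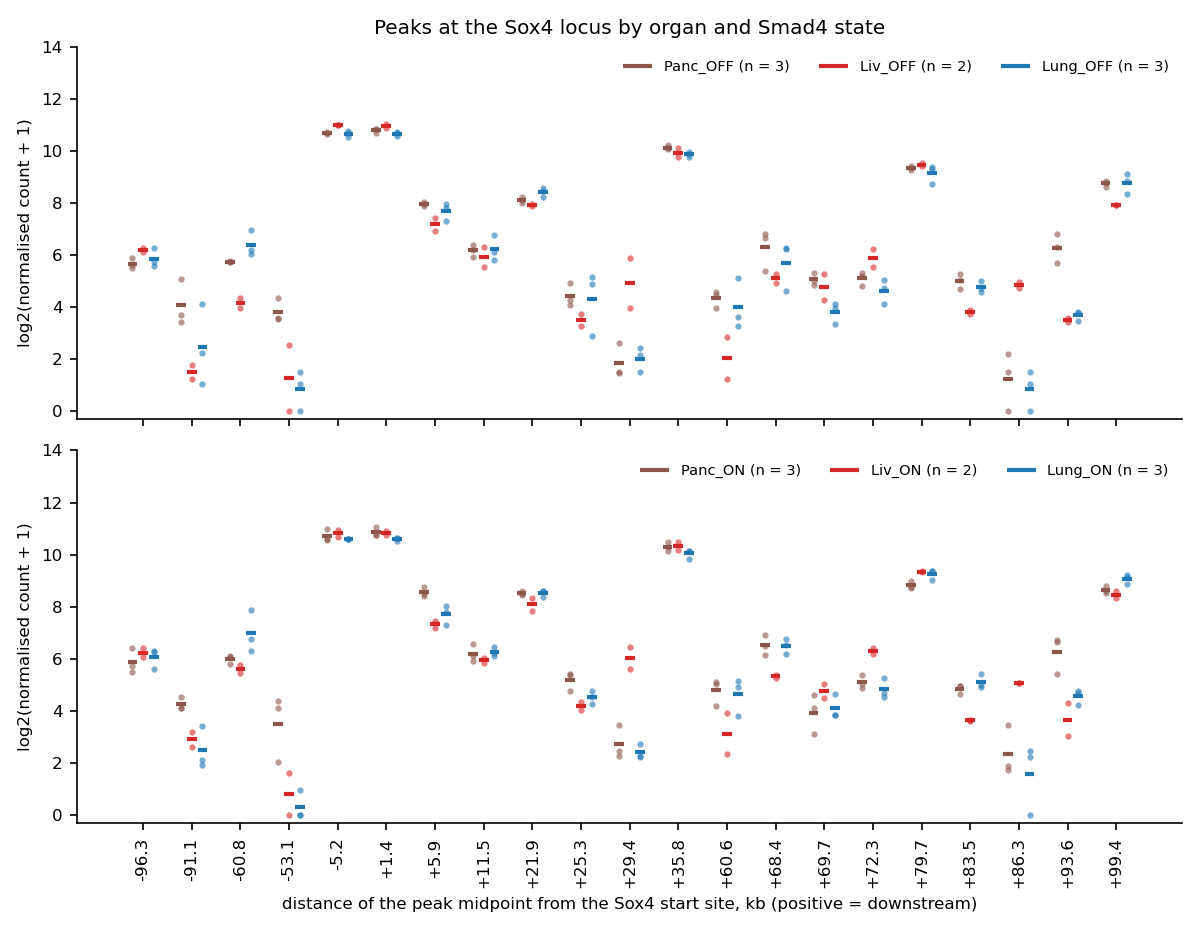
log2(normalised count + 1) of the 21 Sox4 peaks, ordered along the x axis by distance from the start site in kb (not to scale), with Smad4 off above and restored below. Points are samples and bars are group means. The peaks at -5.2 and +1.4 kb differ among organs by less than the size threshold of 0.58, the liver stands above the rest at +29.4 and +86.3 kb, and the pancreas stands above at +93.6 kb.

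The other genes of subgroup C gave little. Sox12, a close relative of Sox4, had an open start site with 775 to 1467 normalised counts over the 16 samples, and none of its 3 peaks was called in any comparison. Sox11 had no peak within 100 kb in any organ or state. The nearest peak of the table lay 125.7 kb from its start site, with 9.75 to 86.7 normalised counts, and the peak 165.5 kb away was higher in the liver (211 and 304 in Liv_OFF, 220 and 359 in Liv_ON) than in the pancreas and lungs (32.7 to 92.9). That peak falls outside the assignment distance and is no member of the locus.

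Levels of the start-site peaks were set side by side per kb of peak. Averaged over the 16 samples, Sox4 had 431 normalised counts per kb, Sox21 382, Sox7 369 and Sox12 311, followed by Sox13 with 228. Each of these overlapped the next in its range over samples, and the order was not the same in each organ. In Liv_OFF the mean was 731 for Sox21 and 492 for Sox4, and in Liv_ON 607 and 445. Sox2 was far lower at 76.8 per kb (25.9 to 160). Sox6 and Sox5 had no assigned peak across a protein-coding start site used here, and their nearest assigned peaks, 821 bp and 1396 bp away, held 189 and 51.9 per kb. A peak at the 5′ end of the whole Sox5 gene record (chr6:144780614-144782865) was not assigned, since it lies 267.1 kb from those start sites. It held 220 to 376 normalised counts in the pancreas, 28.4 to 105 in the liver and 151 to 315 in the lungs. At Sox17 the nearest peak edge lay 16600 bp from the start site.

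**Figure D3:**
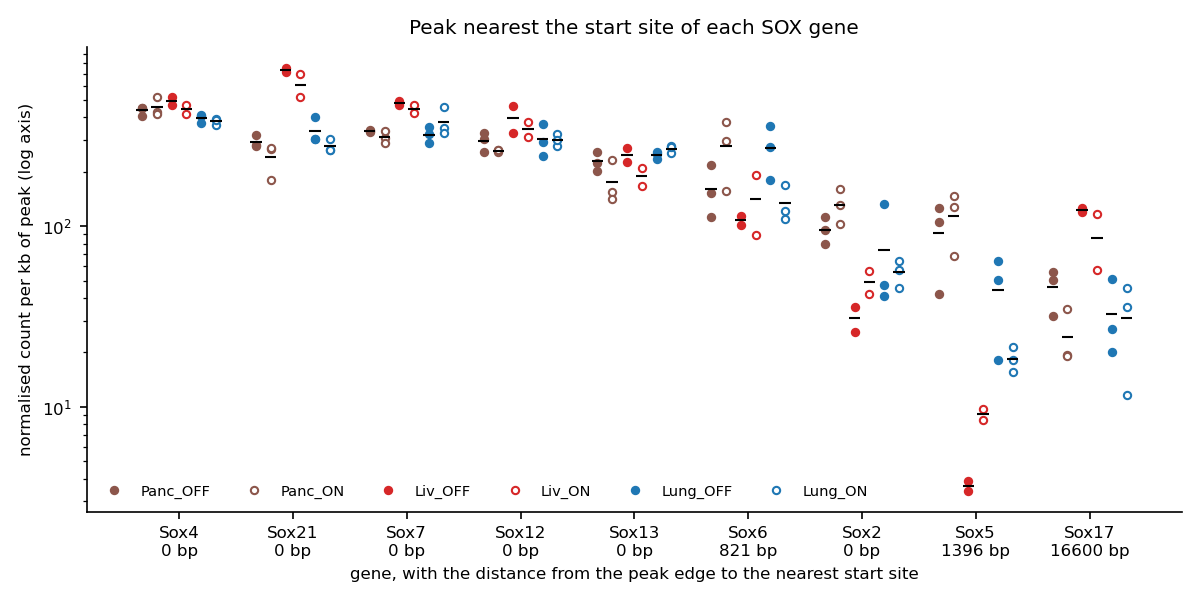
Normalised count per kb of peak (log axis) for the peak nearest a start site of each gene, by sample, with the distance from the peak edge to the start site under the gene. Filled points are Smad4 off, open points are Smad4 restored and black bars are group means. Sox21 is higher and Sox2 and Sox5 are lower in the liver, and Sox4 lies close to the same level in all groups.

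Subgroup B showed opposite orders. Sox21, which in neural progenitors counters Sox2, had a start-site peak (chr14:118235438-118237651) with 1575 and 1661 normalised counts in Liv_OFF and 1143 and 1545 in Liv_ON. The pancreas samples had 401 to 708 and the lung samples 584 to 886, so that the liver did not overlap either. The log2 fold change was 1.13 ± 0.18 against Lung_OFF and 1.11 ± 0.18 against Lung_ON (adjusted p = 0.000207 and 0.000453), and both calls held with each sample left out. All 3 Sox21 peaks were higher in Liv_ON than in Panc_ON (background 27.1%). With Smad4 off, 2 of the 3 were higher in the liver than in the pancreas (background 26.2%) and 1 than in the lungs (background 22.9%).

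At Sox2, a factor of stem cells and squamous epithelium, all 5 peaks were lower in Liv_OFF than in Lung_OFF (background 26.8%). In Liv_ON 4 were lower than in Panc_ON (80%, background 32.2%). The start-site peak (chr3:34649455-34651168) had 44.4 and 61.3 normalised counts in Liv_OFF, 192, 163 and 136 in Panc_OFF, and 227, 70.6 and 81 in Lung_OFF. It was lower in Liv_OFF than in Panc_OFF by -1.62 ± 0.39 (adjusted p = 0.00246), and the groups did not overlap. Against Lung_OFF the fold change was -1.05 ± 0.39 (adjusted p = 0.0359), which was lost without Lung_OFF replicate 1 (-0.53, adjusted p = 0.164) and without Liv_OFF replicate 1 (-0.82, adjusted p = 0.219). The distal peaks had single high samples. At -99.0 kb, Lung_OFF replicate 1, Panc_ON replicate 3 and Lung_ON replicate 1 had 139, 116.5 and 111, and the other 13 samples had 1.39 to 40.2. Between Liv_ON and Lung_ON 1 of the 5 Sox2 peaks was called (20%, against 35.8% of all peaks), and the start-site peak differed by -0.18 ± 0.39 (adjusted p = 0.761). Without Lung_OFF replicate 1, 3 of the 5 Sox2 calls between Liv_OFF and Lung_OFF remained in number. The 34 neighbouring peaks were lower in the liver too, with medians of -0.84 in both Liv_OFF samples against 0.06 to 0.69 in Lung_OFF.

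Sox5, a partner of Sox6 in cartilage, gave the largest number of calls. After lowering by the level of neighbouring peaks, described below, more calls remained against the pancreas than between the liver and the lungs. All 25 peaks lie within the introns of the gene on distal chromosome 6. Between Liv_OFF and Lung_OFF, 21 were lower in the liver (84%, background 26.8%, median log2 fold change -2.69). The peak at +30.6 kb (chr6:143915890-143917104) had 29.6 and 25.1 normalised counts in Liv_OFF, 444, 311 and 462 in Panc_OFF, and 1369, 199 and 357 in Lung_OFF. The median deviation over the locus was 2.65 on the log2 scale in Lung_OFF replicate 1, and the 320 other peaks within 1 Mb had a median of 2.69 in the same sample. In the liver samples these neighbours had medians of -1.30 to -0.64, and in the remaining samples -0.49 to 0.79. In the Panc_ON samples the locus had 1.14, 1.54 and 0.57 and the neighbours -0.10, 0.52 and 0.75. A change in copy number of the region and a change in accessibility cannot be told apart in these counts.

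After each sample was lowered by the median of these neighbours, 4 Sox5 peaks in place of 21 were called between Liv_OFF and Lung_OFF, and 1 in place of 6 between Liv_ON and Lung_ON. Against the pancreas more remained in number, with 13 in place of 16 for Liv_OFF and 11 in place of 19 for Liv_ON, and median log2 fold changes of -1.21 and -0.95. A call can be lost after lowering through a smaller fold change or a larger spread, and these were not told apart. Without Lung_OFF replicate 1, and with no lowering, 16 of the peaks were called between Liv_OFF and Lung_OFF. The peak nearest a start site, at -1.6 kb, had 1.23 and 1.39 in Liv_OFF, 3.49 and 3.05 in Liv_ON, 15.2 to 52.4 in the pancreas and 5.62 to 23 in the lungs. Its difference between Liv_OFF and Lung_OFF (-2.71 ± 0.58, adjusted p = 0.00152) did not pass after lowering (-0.73, adjusted p = 0.424). A further 42 peaks in the body of Sox5 lay over 100 kb from its start sites and were not assigned. These are counted among the 320 neighbours, which are thus not all outside the gene.

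**Figure D4:**
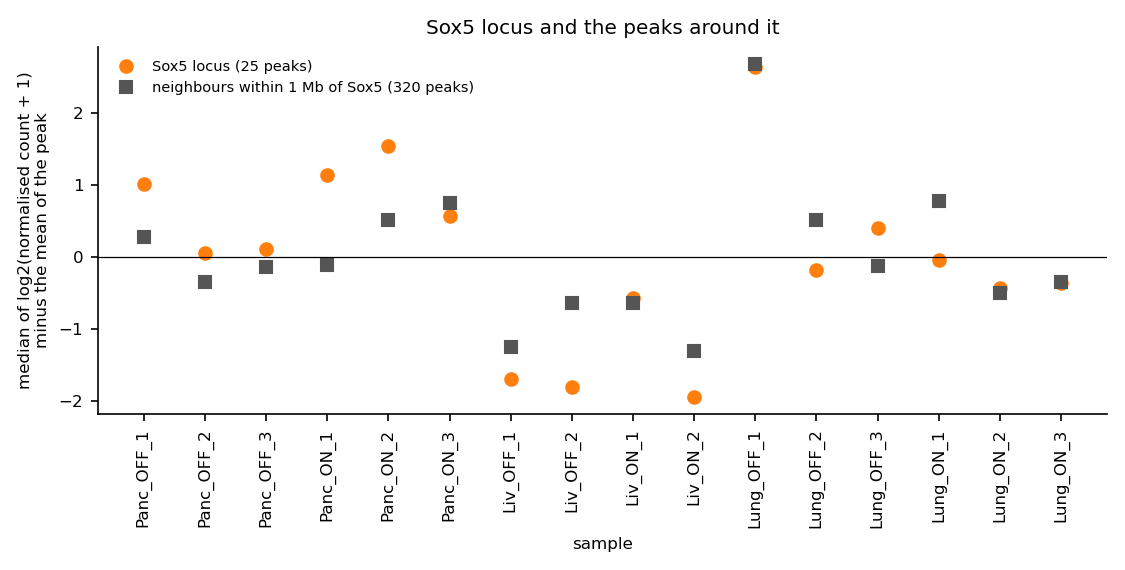
Median deviation from the mean of each peak, on the log2(normalised count + 1) scale, for the 25 Sox5 peaks and the 320 other peaks within 1 Mb in each sample. Both sets are highest in Lung_OFF replicate 1, at 2.65 and 2.69, and both are below 0 in every liver sample.

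Of the 6 peaks of Sox6, another member of subgroup D, 1 was higher (16.7%, background 22.9%) and 2 were lower (33.3%, background 26.8%) in Liv_OFF than in Lung_OFF. Against Panc_OFF, 2 were higher in Liv_OFF (33.3%, background 26.2%). These shares are near those of all peaks. At -22.1 kb (chr7:115867656-115868816), in an intron, the counts were 109 and 71.1 in Liv_OFF and 58.2 and 55.9 in Liv_ON. The pancreas had 3.42 to 26 and the lungs 7.86 to 41.3, so that the liver overlapped neither. The log2 fold change was 3.90 ± 0.56 against Panc_OFF (adjusted p = 5.79e-05) and 2.13 ± 0.56 against Lung_OFF (adjusted p = 0.00593). The lungs also exceeded the pancreas with Smad4 off, by 1.77 ± 0.50 (adjusted p = 0.0299), but not without Lung_OFF replicate 2 (1.25, adjusted p = 0.135). The peak at -5.5 kb had 1.23 and 2.79 in Liv_OFF against 4.6, 28.3 and 7.75 in Lung_OFF, a log2 fold change of -1.96 ± 0.68 (adjusted p = 0.027), and the 11 values in the other groups, 2.33 to 6.9, overlapped both. The call at Sox6 -5.5 kb was lost without Lung_OFF replicate 2 (-1.27, adjusted p = 0.121), without Liv_OFF replicate 1 (-1.57, adjusted p = 0.17) and under quantile normalisation (-1.47, adjusted p = 0.119). The peak nearest a Sox6 start site was lower in Liv_OFF than in Lung_OFF by -1.23 ± 0.44 (adjusted p = 0.0309). This was lost without Liv_OFF replicate 2 (-1.16, adjusted p = 0.136) and without Lung_OFF replicate 1 (-1.01, adjusted p = 0.104).

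Sox13, a regulator of gamma delta T cells, had 9 of 20 peaks lower (45%, background 26.8%) and 1 higher (5%, background 22.9%) in Liv_OFF than in Lung_OFF. In Liv_ON 9 were lower than in Lung_ON (45%, background 18.2%). Its most accessible distal peak, at -46.9 kb (chr1:133470538-133472008), had 188 and 188 normalised counts in Liv_OFF, 422, 392 and 449 in Panc_OFF, and 577, 488 and 566 in Lung_OFF. The log2 fold change of -1.52 ± 0.23 to the lungs (adjusted p = 0.000158) recurred with Smad4 restored (-1.47 ± 0.23, adjusted p = 0.000405). The start-site peak, in contrast, had a log2 fold change of 0.00 ± 0.18 between Liv_OFF and Lung_OFF, and was higher in Lung_ON than in Panc_ON by 0.64 ± 0.16 (adjusted p = 0.00976). The latter fell below the size threshold without Panc_ON replicate 1 (0.57) and without Panc_ON replicate 2 (0.50). The 209 neighbours of Sox13 were higher in the liver as a group (0.15 to 0.29) than in the other organs (-0.28 to 0.08), the opposite order to its distal peaks.

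The subgroup F genes, known from endoderm and vessels, moved apart. At Sox17, 4 of 7 peaks were higher (57.1%, background 22.9%) and none lower (background 26.8%) in Liv_OFF than in Lung_OFF. Against Panc_OFF, 6 were higher in Liv_OFF (85.7%, background 26.2%). The peak at -41.2 kb (chr1:4538216-4538840) had 195 and 164 normalised counts in Liv_OFF and 80.4 and 92.4 in Liv_ON. The pancreas samples had 1.53 to 16.1 and the lung samples 14.6 to 65.2. The log2 fold change was 3.99 ± 0.66 against Panc_OFF (adjusted p = 0.00016) and 3.89 ± 0.66 against Panc_ON (adjusted p = 0.000198). The difference of 1.85 ± 0.66 from Lung_ON (adjusted p = 0.0422) was lost without Liv_ON replicate 2 (1.75, adjusted p = 0.224). The 47 neighbouring peaks were higher in the liver as well, with medians of 0.26 to 0.42 against -0.45 to 0.27 elsewhere. The 5 endothelial markers summed to 89.4 to 137 in the liver samples and to 149.5 to 904 in the others. Of the 904, in Lung_OFF replicate 1, the Cdh5 peak held 697. The part of these markers in the Sox17 values was not tested.

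At Sox7, 5 of 11 peaks were lower (45.5%, background 26.8%) and 2 higher (18.2%, background 22.9%) in Liv_OFF than in Lung_OFF. Its most accessible peak, at +19.6 kb (chr14:63962425-63964191), had 290 and 254 normalised counts in Liv_OFF, 601, 659 and 802 in Panc_OFF, and 559, 428 and 556 in Lung_OFF, a log2 fold change of -1.33 ± 0.21 from the pancreas and -0.91 ± 0.21 from the lungs (adjusted p = 0.000102 and 0.00233). The peak at -21.0 kb moved the other way, with 29.6 to 97.5 in the liver and 0.933 to 15.7 elsewhere, and a log2 fold change of 3.96 ± 0.62 between Liv_ON and Lung_ON (adjusted p = 0.000371). The start-site peak had 331 and 348 normalised counts in Liv_OFF and 205, 228 and 249 in Lung_OFF, a log2 fold change of 0.58 ± 0.18 (adjusted p = 0.0139) that lay just under the size threshold before rounding. The 5 lower and 2 higher peaks recurred in number between Liv_ON and Lung_ON (background 18.2% lower and 17.6% higher).

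Organ differences found with Smad4 off were then looked for in the restored samples, which came from other mice. Of the 58 SOX locus peaks called between Liv_OFF and Lung_OFF, 32 were called in the same direction between Liv_ON and Lung_ON, which is 55.2% of the first list and 91.4% of the 35 in the second. Over all peaks these shares were 61.8% and 85.8%. None was called in opposite directions, and 54 of the 58 (93.1%) had the same sign, against 97.3% over all peaks. Between liver and pancreas 43 calls were shared, 78.2% of 55 and 81.1% of 53, against 85.1% and 83.9% over all peaks. Between lungs and pancreas 3 were shared, 30% of 10 and 14.3% of 21, against 63.6% and 39.7% over all peaks. The sign was the same for 55 of 55 between liver and pancreas (98.9% over all peaks) and for 6 of 10 between lungs and pancreas (60% against 92.3%).

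**Figure D5:**
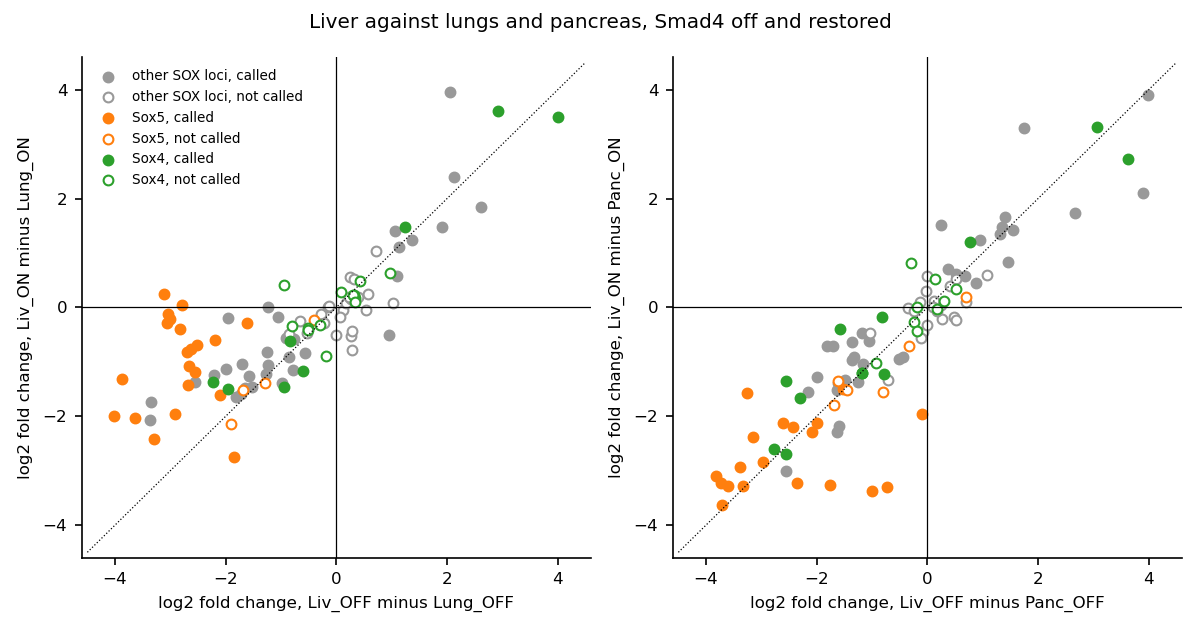
log2 fold change of the liver against the lungs (left) and the pancreas (right) for the 101 peaks, with Smad4 off on the x axis and restored on the y axis. Filled points were called in at least 1 of the states and the dotted line marks equal values. Sox4 peaks lie near the line, and Sox5 peaks lie above it on the left, where values with Smad4 off reach -4.03.

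To ask what Smad4 restoration did at these loci, ON and OFF samples were compared within each organ. None of the 101 peaks was called in Panc, where 3.42% of all peaks were, in Liv (0.55%) or in Lung (0.00366%). At an unadjusted limma p under 0.05 there were 12, 13 and 13 peaks, against 23103, 16595 and 9720 of all 136630. The quasi-likelihood test of edgeR called none in any organ, and DESeq2 called 2 in Panc, none in Liv and 4 in Lung, all of the latter lower at Sox5, where it called 6.8%, 2.33% and 0.73% of all peaks. Tests of whether restoration acted differently between organs called none of the 101 peaks for Liv against Lung, Liv against Panc or Lung against Panc, where 0% of all peaks were called in each. At an unadjusted limma p under 0.05 there were 9, 8 and 16, against 7171, 5403 and 14973 of all 136630. edgeR called none in these 3 tests, and DESeq2 called none, none and 3 (1.65% of all peaks for the last). Without Lung_OFF replicate 2, 3 peaks were called for Lung against Panc, where 2.93% of all peaks were, and with the replicate number of the lung samples as a block 2 were, against 1.75%. Leaving out Panc_ON replicate 3 gave 3 calls in the pancreas (3.57% of all peaks), and leaving out Liv_ON replicate 2 or Lung_OFF replicate 2 gave 2 and 1 in the liver (1.88% and 1.73%).

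Averaged over the organs, restoration changed 4 of the 101 peaks (3.96%), where 6.62% of all peaks were called. The strongest was a loss at Sox13 +8.6 kb (chr1:133415584-133415991), in an intron. Its normalised counts were 44.4, 22.3 and 25.9 in Panc_OFF against 7.11, 8.67 and 12.3 in Panc_ON, and 98.7 and 40.4 in Liv_OFF against 28 and 7.11 in Liv_ON. In the lungs they were 26.7, 51.1 and 60.3 against 13.5, 7.67 and 30.8. The samples did not overlap in the pancreas and liver but did in the lungs. The averaged log2 fold change was -1.72 ± 0.35 (adjusted p = 0.0133) and the call held with each sample left out.

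The 3 gains were at Sox7, Sox4 and Sox13. At Sox7 -37.9 kb (chr14:63905641-63905985), within the neighbouring gene Pinx1, the counts went from 8.64 and 6.97 to 22.1 and 22.3 in the liver and from 21.2, 14.1 and 26.7 to 44.9, 43.1 and 32.7 in the lungs, with no overlap in either. In the pancreas 27.3, 36.6 and 26.9 overlapped 36.4, 42.1 and 33. The averaged log2 fold change was 0.89 ± 0.20 (adjusted p = 0.0193) and held with each sample left out. At Sox4 -60.8 kb, whose counts are given above, it was 0.75 ± 0.22 (adjusted p = 0.0526), with values of 1.44 ± 0.42 in the liver, 0.57 ± 0.35 in the lungs and 0.25 ± 0.35 in the pancreas (adjusted p = 0.174, 0.804 and 0.759). It was lost without Liv_OFF replicate 1 (0.69, adjusted p = 0.156) and without Liv_ON replicate 1 (0.70, adjusted p = 0.161). At Sox13 -42.5 kb the change of 0.72 ± 0.23 (adjusted p = 0.0819) was lost in 12 of the 16 fits that left out a sample, with values of 0.55 to 0.83. The number of calls was 8 without Lung_OFF replicate 1, where 11.9% of all peaks were called, and 2 without Liv_ON replicate 1, where 2.57% were.

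Other genes of the family and of the pathway were counted in the same way. The other SOX genes (Sox1, Sox3, Sox8, Sox9, Sox10, Sox14, Sox15, Sox18, Sox30 and Sry) had 40 peaks, of which 7 were higher and 13 lower in Liv_OFF than in Lung_OFF, or 17.5% and 32.5% against the 22.9% and 26.8% of all peaks given above, with a median log2 fold change of -0.34. Sox9, the ductal member of the family, gave 10 of the 13 and 3 of the 7. Averaged restoration changed 6 of the 40 (15%, against 6.62% of all peaks), with 3 higher and 3 lower. Among 10 genes of TGF-beta signalling and of the known context of Sox4 (Klf5, Snai1, Bcl2l11, Bmf, Tgfb1, Tgfbr1, Tgfbr2, Smad2, Smad3 and Smad4), 49 of 151 peaks (32.5%, background 22.9%) were higher and 30 (19.9%, background 26.8%) lower in Liv_OFF than in Lung_OFF, with a median of 0.23. Klf5, a factor of epithelial identity, had 12 of 23 peaks higher and 1 lower in the liver, and Snai1, a repressor of epithelial genes, had 7 of 9 lower and none higher. Tgfbr2 had 15 of 28 higher and 3 lower, and Bmf had 4 of 12 lower and none higher. Bcl2l11 (6 higher, 4 lower), Tgfbr1 (2 and 2), Smad2 (7 and 5), Smad3 (6 and 2) and Smad4 (1 and 2) had calls both ways. Tgfb1 had no call. Restoration changed 6 of the 151 in the pancreas (3.97%, background 3.42%), all lower, 1 in the liver (0.662%, background 0.55%) and 0 in the lungs. In the lungs 8 of the 151 had an unadjusted limma p under 0.05, against 9720 of all 136630 peaks. The alternatives were not run for this list.

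By sequence, the 101 peaks held the SOX motif AACAAT in 23 (22.8%) of their central 300 bases, against 16.2% of all peaks. The KLF motif was in 39.6% against 28.4% and the TEAD motif in 28.7% against 20.1%. The AP-1 motif TGANTCA was in 31.7% against 34.1%, and the RUNX motif in 26.7% against 27%. Of the SMAD motifs, the palindrome GTCTAGAC was in none, against 0.326% of all peaks, and GGCGCC was in 6 (5.94%) against 3.74%, none of them at Sox4. GTTAATNAT for HNF1 was in 1, at Sox17 -16.8 kb, and TGTTTAC for FOX was in 6. Of the sequences shown, the liver-high peaks Sox4 +29.4 kb, Sox17 -41.2 kb and Sox6 -22.1 kb each hold AACAAT once, while the liver-high Sox4 +86.3 kb holds none, and neither do Sox7 -21.0 kb and Sox21 +0.5 kb, which are not shown. Sox4 +86.3 kb, +93.6 kb and -60.8 kb hold an AP-1 match. Sox7 -37.9 kb holds both, and one of its SOX matches shares a base with the AP-1 match. A match is a string of letters and was not tested for binding.

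The promoter peaks whose pattern over the 16 samples was most like that of the Sox4 start site were those of Hist1h2ag (r = 0.97), Hist1h4m (0.96), Hist2h2ac (0.95), Arid5b (0.94) and Hist1h2ap (0.94), by Pearson correlation of log2 values among 13329 promoter peaks of other genes. The Sox4 peak spanned 0.51 on the log2 scale over these samples, and the 5 promoters spanned 0.50 to 0.87. All points share the libraries and their normalisation, and the values are given as a description.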

How the data were processed

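Accessibility was measured by ATAC-seq in 16 samples of 6 groups, each from its own mouse. Per the study's methods, reads were trimmed, aligned to mm10 with Bowtie2, called as peaks with MACS2, merged within 500 bp and counted with featureCounts. Tn5 shifting and duplicate removal are not given in the sources used here. The deposited signal values are read counts per peak that the authors divided by DESeq2 size factors. Whole reads were recovered for 100% of values (tolerance 0.001) and entered only the count tests of edgeR 4.0.16 and DESeq2 1.42.0, run as alternatives. Of 136631 peaks, the mitochondrial one (1.43 to 3.56% of its sample's reads) was left out.

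The main test was limma 3.58.1 (trend and robust moderation, R 4.3.3) on log2(normalised count + 1) with 6 group means. The pseudocount of 1 understates changes of low peaks. Other alternatives were another pseudocount, a filter on low counts, stricter thresholds, TMM factors, quantile normalisation, GC correction, fits of only the groups compared, assignment within 20 kb, Sox5 left out or lowered by the level of its neighbours, a replicate block and leaving out each sample. Leaving out Sox5 and the block in the lungs only were chosen after seeing the data. Same-numbered samples deviated together in the lungs (correlations 0.491, 0.124 and 0.214) but not in the pancreas (-0.33, 0.027 and -0.33) or the liver (0.083), and pairing was therefore assumed for the lungs alone, on the data and not on the labels. Named peaks were the start-site peak of each gene, the called peak of smallest p in each direction per locus and organ comparison whose groups did not overlap, every peak called on restoration, and every called Sox4 peak. Sox4 -5.2 kb, Sox2 -99.0 kb and Sox5 +30.6 kb were named after their values were seen. The members and lists were chosen with earlier results of these data known. The main limma test was tried on simulated counts with known changes, for the comparison of Liv_OFF with Lung_OFF alone. The base from which peak starts are counted is not given in the sources used here, and starts are printed as deposited. One element of the engineered background is not reported here.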

Additional observations from a re-analysis of the deposited data

Results flagged for a closer look

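2 peaks had changes of opposite sign between organs on restoration of Smad4, without overlap between the OFF and ON samples of each organ named. The share of all nuclear peaks with this pattern is not given here, so whether 2 is unusual was not tested. For a difference in restoration, limma called 0 of all 136630 peaks for Liv against Panc and 0 for Lung against Panc. At Sox5 -58.0 kb the log2 fold change of ON against OFF was 1.18 in Panc, -0.684 in Liv and -1.94 in Lung. The difference between organs did not pass in limma for Liv against Panc (-1.86, adjusted p = 1) or Lung against Panc (-3.12, adjusted p = 0.246), and the latter passed when the replicate number of the lung samples was a block (adjusted p = 0.0809, limma). The 320 neighbouring peaks also differed between these samples, with medians of 2.69, 0.51 and -0.12 in Lung_OFF and 0.79, -0.49 and -0.34 in Lung_ON, and of 0.28, -0.35 and -0.14 in Panc_OFF and -0.10, 0.52 and 0.75 in Panc_ON. After lowering by these medians the change was 0.723 in Panc, -0.663 in Liv and -0.894 in Lung, and the difference of Lung against Panc was -1.62 (adjusted p = 0.636, limma). At Sox6 -22.1 kb the log2 fold change was 1.19 in Panc and -0.615 in Liv, and the difference did not pass either (-1.80, adjusted p = 1, limma). Groups of 2 or 3 samples are too small for a check of single samples that stand apart from the rest of their group.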

How the results depend on the processing

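Of 103 called differences at named peaks, 61 were still called with each sample left out in turn, 67 under each of the other alternatives run and 51 under both, and 0 changed sign. With 2 or 3 mice a group, a group left with 1 sample was assumed to vary like the others. Calls over all peaks moved as well when a sample was left out, and the ranges below are given without those.

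The number of SOX locus peaks called moved by over 1.5 times as follows. With assignment within 20 kb it was 11 for Liv_OFF against Lung_OFF, 11 for Liv_OFF against Panc_OFF, 1 for Lung_OFF against Panc_OFF, 8 for Liv_ON against Lung_ON, 12 for Liv_ON against Panc_ON, 7 for Lung_ON against Panc_ON and 1 for averaged restoration, where only 31 peaks remained. With Sox5 left out it was 37 for Liv_OFF against Lung_OFF and 34 for Liv_ON against Panc_ON, from 76 peaks. At thresholds of 1 and 0.05 it was 4 for Lung_OFF against Panc_OFF, 23 for Liv_ON against Lung_ON, 9 for Lung_ON against Panc_ON and 1 for averaged restoration. In that order, the calls over all peaks were 3680 higher and 10202 lower, 16849 and 15807, 7551 and 14680, and 1.22% in all. A mean of at least 20 gave 6 and DESeq2 gave 16 for Lung_OFF against Panc_OFF. Over all peaks the former called 7478 higher and 10960 lower of 109763, and the latter 12369 and 15522 of 136591. DESeq2 also gave 2 for restoration in Panc, 4 in Lung and 3 for Lung against Panc, where it called 6.8%, 0.73% and 1.65% of all peaks. Restoration in Panc had 1 call under quantile normalisation and in a fit of only the groups compared, 2 with the replicate block and 1 with the block and GC correction, which gave 7 for averaged restoration. Of all peaks these settings called 6.06%, 4.3%, 4.72% and 4.03% in Panc, and the last called 6.58% for averaged restoration. The block in the lungs only gave 2 for restoration in Lung against Panc (1.75% of all peaks), and 3 with GC correction (1.37%). Outside the lungs the replicate numbers share only a number. The cause of these changes was not tested beyond the fewer peaks or stricter thresholds named.

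With each sample left out, the calls ranged from 41 to 62 for Liv_OFF against Lung_OFF, 41 to 58 for Liv_OFF against Panc_OFF, 3 to 13 for Lung_OFF against Panc_OFF, 13 to 41 for Liv_ON against Lung_ON, 31 to 56 for Liv_ON against Panc_ON and 13 to 27 for Lung_ON against Panc_ON. For restoration they ranged from 0 to 3 in Panc, 0 to 2 in Liv, 0 to 0 in Lung, 2 to 8 averaged, and 0 to 3 for Lung against Panc.

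Sign changed only at start-site peaks that were not called between Liv_OFF and Lung_OFF. Sox4 was at -0.091 under quantile normalisation, -0.097 with GC correction and -0.105 with the block and GC correction. Sox12 was at -0.028 with GC correction and -0.085 with the block as well. Sox13 was at 0.028 with the replicate block, 0.0032 by DESeq2 and -0.131 to 0.126 with each sample left out. Quantile normalisation moved the median of all peaks by over 0.1 for Lung_ON against Panc_ON, to 0.112, and no other scaling moved it as far in an organ comparison.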
